A study of Mus musculus with 50 samples.

Results

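The comparison covers the non-regenerative digits taken 3 hours after amputation against those taken at once, at 0 hours. It takes 3 libraries at 3 h and 3 at 0 h, which are 6 of the 50 samples of the series and 6 of its 41 digits, chosen by their labels alone. The study amputated the distal phalanx (P3) of the third hindlimb digit of young adult male C57Bl/6 mice and sequenced RNA of the tissue around the wound bed over time, to ask how the early transcriptome differs between digits that can and cannot regenerate. No mutation, transgene or test agent is named for any of these mice, which were operated on both hindlimbs under isoflurane, and the 2 groups differ in the time at which the tissue was taken. A 0 h digit is therefore a freshly cut digit and not an uncut one.

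Digits are termed non-regenerative when more than 67% of the phalanx is removed. The labels give levels of 62%, 62% and 75% at 0 h and of 63%, 64% and 75% at 3 h, so that 4 of the 6 digits carry a level below that value and all 6 were kept in the group of their label. The label dates of the 3 h digits are all 14 July 2015, whereas replicate 1 at 0 h is dated 20 July 2015 and replicates 2 and 3 at 0 h are dated 30 November 2015. Date and time point can therefore be told apart only through 0 h replicate 1 and through the intermediate digits at 0 h, of which those of 53% and 55% are dated 20 July 2015 and that of 52% is dated 18 December 2015. The labels give no replicate number for digits. All 6 titles carry the side Left, and digit 3 was the one cut on each hindlimb, so the 6 digits come from separate mice.

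After a skin wound, immediate early genes are transcribed within minutes without new protein synthesis, and many of their products are AP-1 or related transcription factors. Damage signals also release NF-kB, which drives cytokines, chemokines, endothelial adhesion molecules and its own inhibitors, so that the response is soon restrained. Neutrophils follow the chemokines into the wound within hours, monocytes come later, and keratinocytes at the edge respond to ligands of the EGF receptor before they migrate.

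The totals ran from 4747646 to 10608182 counts at 0 h, and were 5743005, 2848879 and 1468719 counts at 3 h. Replicate 3 at 3 h was the shallowest of all 41 digits, and 3 counts in it amount to 2.04 CPM (counts scaled to a common library total), against 0.283 in the deepest library. Spearman's correlation over the 12562 genes tested was 0.984 between the 2 November digits at 0 h, 0.929 and 0.930 between each of them and 0 h replicate 1, and 0.847 to 0.944 among the 3 h digits, where the lowest values are those of replicate 3. These values overlap those between the groups, which ran from 0.846 to 0.951. Keratinocyte markers were abundant in each library (59832 to 112237 CPM, summed over 12 genes), while the 12 skeletal muscle markers were all too low to be tested. Values given in the order of the replicates are normalized counts, that is, counts scaled to the mean effective size of the 6 libraries, unless another scale is named.

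No gene passed edgeR's quasi-likelihood test at an adjusted p-value below 0.05 with a change of more than 2-fold, in either direction (0.0% of genes), and the smallest adjusted p-value was 0.164. At an unadjusted p-value below 0.05, 736 genes were higher (5.86% of those tested) and 626 were lower (4.98%) at 3 h. With upper-quartile scaling in place of TMM the share that was higher among the genes below 0.05 was 41.2%, against 54.0% with TMM. The groups did not overlap in 1170 genes that were higher (9.31%) and 1421 that were lower (11.3%). A single gene compared by an exact permutation test of 3 against 3 cannot reach a two-sided p-value below 0.1. With the same counts, DESeq2 called 103 genes higher (0.82%) and 93 lower (0.74%), and limma with voom and library quality weights called 121 higher (0.963%) and 67 lower (0.533%). The voom weights were 0.434 for 0 h replicate 1, the July digit, and 2.45 and 1.97 for the November digits at 0 h. The voom reference thus rests mostly on digits of a later date than the 3 h digits. With the 3 intermediate digits at 0 h added to the reference, edgeR called 64 genes higher (0.509%) and 44 lower (0.35%), and 50 genes were called higher and 16 lower by all 3 of these fits. Without 0 h replicate 1, edgeR called 28 genes higher and 56 lower. In that fit all 3 h digits are dated July and all 0 h digits November, so time and date cannot be told apart. In the plot of calls by fit these counts stand side by side with those of the other alternatives.

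**Figure D1:**
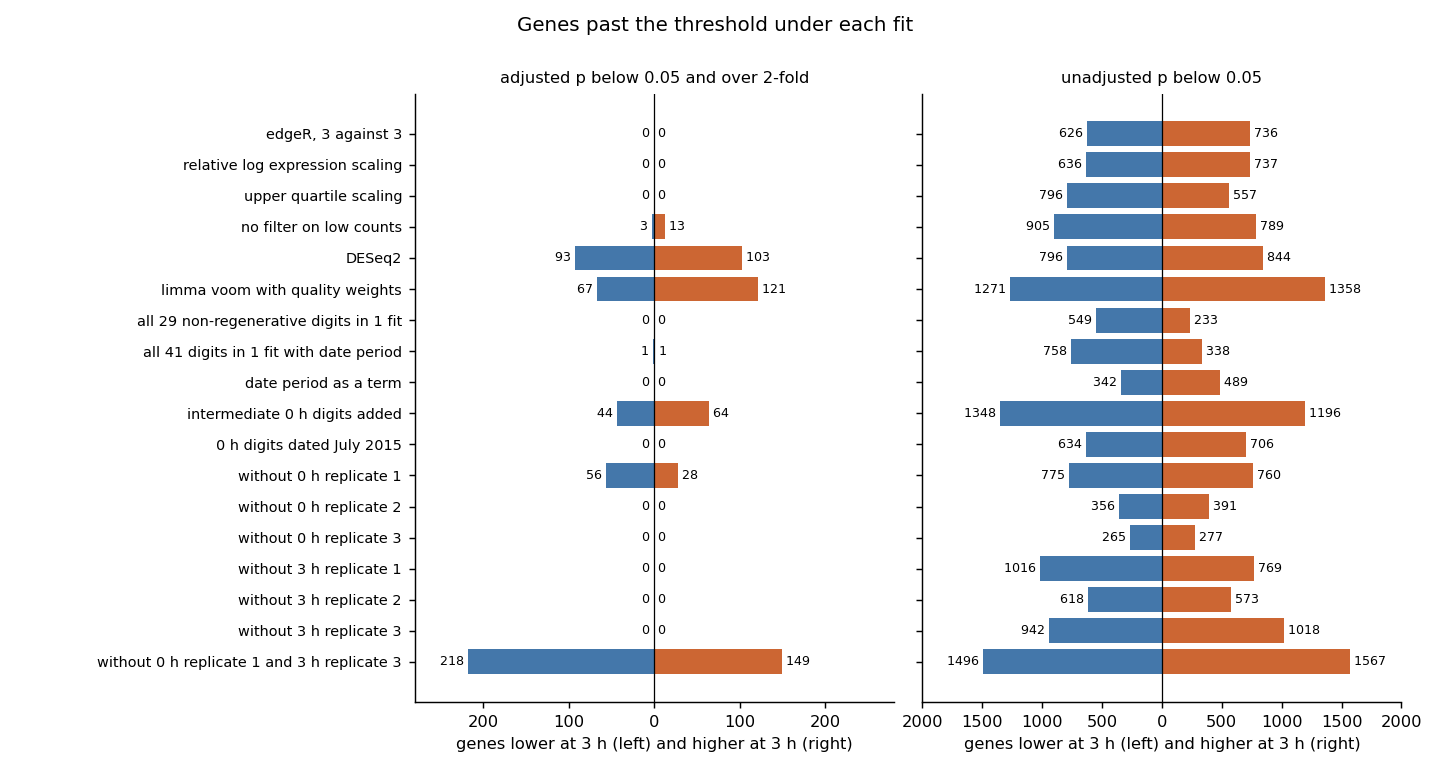
Number of genes past each threshold (horizontal axis) in each fit of the 3 h against the 0 h digits (vertical axis), with genes lower at 3 h in blue to the left and genes higher in orange to the right. The edgeR fit of 3 against 3 digits calls 0 genes, DESeq2 calls 103 higher and 93 lower, and the fit without 0 h replicate 1 and 3 h replicate 3 calls 149 higher and 218 lower.

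The promoters of 4 of the genes named below are shown because they hold AP-1 or NF-kB motifs. They are RefSeq windows of GRCm38.p6 from 250 bases before to 50 after the transcript start, printed from 5′ to 3′ on the gene's strand. Il6, which encodes the cytokine interleukin-6, has its window on the plus strand at chr5:30012864-30013163. That of Cxcl1, a neutrophil-attracting chemokine, is on the plus strand at chr5:90890995-90891294. The window of Tnfaip3, which encodes the NF-kB inhibitor A20, is on the minus strand at chr10:19015361-19015660, and that of Selp, which encodes the endothelial and platelet adhesion molecule P-selectin, is on the plus strand at chr1:164115014-164115313. Capitals mark matches to the AP-1 motif TGANTCA in Il6, Tnfaip3 and Selp and to the NF-kB consensus in Il6, Cxcl1 and Tnfaip3, on either strand.
Il6: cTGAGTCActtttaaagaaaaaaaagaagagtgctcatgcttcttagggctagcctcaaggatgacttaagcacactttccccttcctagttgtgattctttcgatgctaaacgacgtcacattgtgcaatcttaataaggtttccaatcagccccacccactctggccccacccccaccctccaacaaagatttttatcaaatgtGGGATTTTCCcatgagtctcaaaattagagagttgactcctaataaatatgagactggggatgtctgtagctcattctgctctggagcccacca
Cxcl1: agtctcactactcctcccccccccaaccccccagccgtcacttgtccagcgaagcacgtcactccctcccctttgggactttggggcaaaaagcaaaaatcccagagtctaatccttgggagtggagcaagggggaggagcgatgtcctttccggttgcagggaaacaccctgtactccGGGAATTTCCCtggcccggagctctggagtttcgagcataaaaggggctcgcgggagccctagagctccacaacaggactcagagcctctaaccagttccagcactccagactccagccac
Tnfaip3: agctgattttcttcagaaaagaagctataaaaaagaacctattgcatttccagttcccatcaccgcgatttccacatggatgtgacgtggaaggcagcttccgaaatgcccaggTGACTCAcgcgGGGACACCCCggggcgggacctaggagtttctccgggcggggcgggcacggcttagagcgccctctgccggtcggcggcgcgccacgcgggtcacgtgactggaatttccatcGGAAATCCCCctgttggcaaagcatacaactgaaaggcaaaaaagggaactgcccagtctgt
Selp: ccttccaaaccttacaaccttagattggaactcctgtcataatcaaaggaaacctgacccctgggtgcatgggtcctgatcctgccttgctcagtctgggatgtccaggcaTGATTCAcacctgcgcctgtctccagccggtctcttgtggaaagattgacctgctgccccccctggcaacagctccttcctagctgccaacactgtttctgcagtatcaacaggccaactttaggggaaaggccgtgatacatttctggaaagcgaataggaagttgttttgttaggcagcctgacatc
The capitals of Cxcl1 hold 2 overlapping matches to the NF-kB consensus. Of all 27025 genes with such a window, 7.93% held the AP-1 motif and 4.35% the NF-kB motif. Of 101 of the genes named here, 80 had a window. Among those with an unadjusted p-value below 0.05, 12 of 55 that were higher at 3 h held the AP-1 motif (21.8%) and 7 of 55 the NF-kB motif (12.7%), and 3 of 24 (12.5%) and 1 of 24 (4.17%) of those that were lower did. These genes were named for their values or as members of gene lists. The lists include NF-kB inhibitors and chemokines and were chosen with earlier results of these data known. The shares therefore describe the genes chosen and were not tested.

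Il6 (ENSMUSG00000025746, chr5:30013114-30019981 of GRCm38) had 19.8, 8.50 and 5.01 at 0 h and 149.9, 158 and 550.0 at 3 h. All 3 h digits lay above all 0 h digits, and replicate 3, the shallowest library, was the highest. The log2 fold change was 4.72 ± 0.73 (SE; n = 3 and 3; edgeR adjusted p = 0.18), and it was called higher by DESeq2 and voom but not with the 6 digits at 0 h. Fosl1 (ENSMUSG00000024912, chr19:5447547-5455946), which encodes the AP-1 subunit Fra-1, had 58.4, 13 and 25.1 at 0 h and 311, 588 and 852 at 3 h. Here every 3 h digit was more than 5 times as high as the highest 0 h digit, with a log2 fold change of 4.22 ± 0.59 (SE; edgeR adjusted p = 0.164). It was called higher by DESeq2, voom, the fit with 6 digits at 0 h and the fit without 0 h replicate 1. The last of these fits holds no July digit at 0 h. Against the July digits at 0 h the log2 fold change of Fosl1 was 3.22.

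By the rule for the largest differences among abundant genes, the 12 genes most increased at 3 h were Il6, Fosl1, Ccl7, Selp, Adamts4, Arc, Ptgs2, Lce3e, Cxcl1, Socs3, Adamts1 and Nfil3. Their log2 fold changes ran from 2.50 for Nfil3 to 4.72 for Il6. In 11 of them 0 h replicate 1, the July digit, was the highest of the 0 h digits, the exception being Lce3e. Lce3e, which encodes a late cornified envelope protein of the epidermis, had 19.8, 44.2 and 30.1 at 0 h and 129, 330.1 and 288 at 3 h, and it belongs to a family of near-identical copies among which reads may be split. Against the 3 digits at 0 h dated July 2015 all 12 stayed higher, with log2 fold changes from 1.30 for Cxcl1 to 3.42 for Lce3e.

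**Figure D2:**
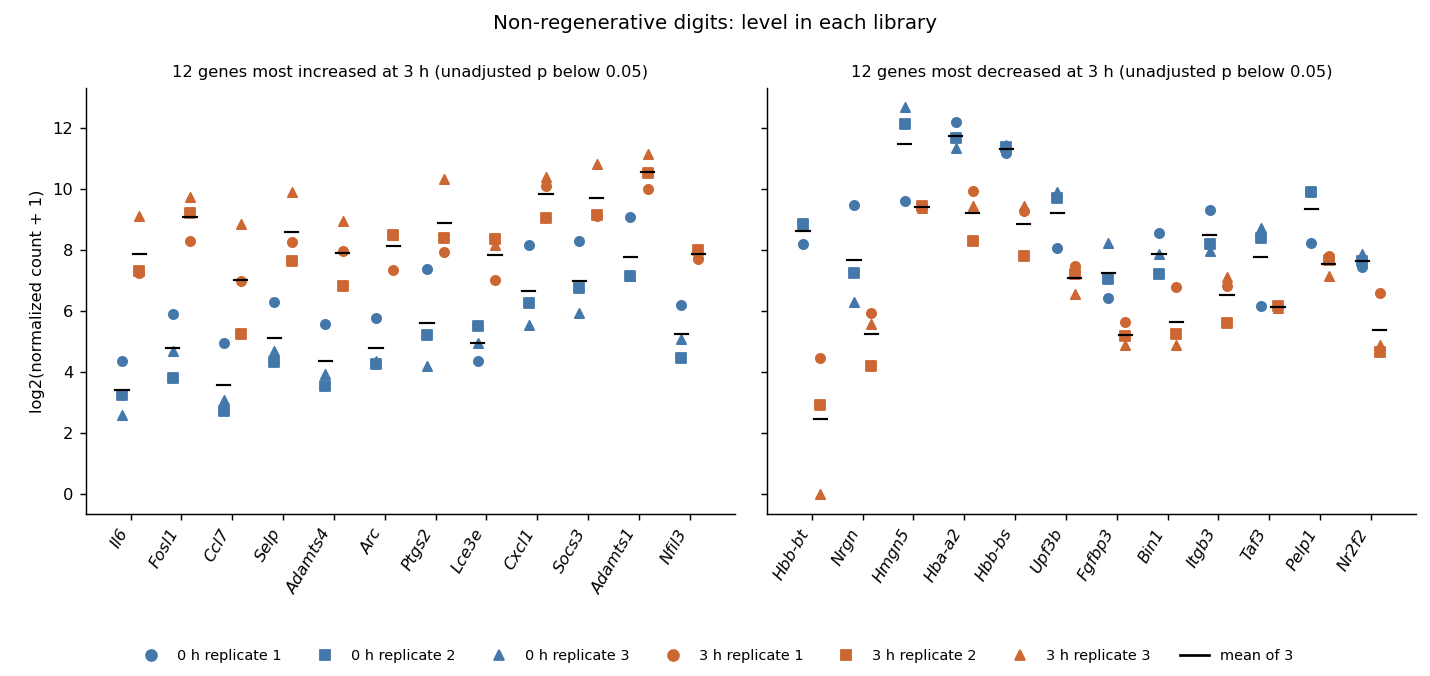
Level of the 12 genes most increased (left) and most decreased (right) at 3 h among abundant genes, as log2(normalized count + 1) on the vertical axis. Each symbol is 1 library (blue 0 h, orange 3 h, shape by replicate) and bars are means of 3. Circles in blue, 0 h replicate 1, are the 0 h symbols nearest to the 3 h libraries for every gene on the left except Lce3e. On the right the same holds for Hbb-bt, Hmgn5, Hbb-bs, Upf3b, Fgfbp3, Taf3, Pelp1 and Nr2f2.

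Arc, an immediate early gene best known from neurons, had 54.2, 18.1 and 19.4 at 0 h and 160.4, 363 and 363 at 3 h. The groups did not overlap, and the log2 fold change was 3.29 ± 0.54 (SE). In the paragraphs that follow, a value with ± in parentheses after a gene is its edgeR log2 fold change and an SE (n = 3 and 3). edgeR's test gives no SE. Each SE here and above is the absolute log2 fold change divided by the square root of the F statistic, so it is approximate. No such gene passed the adjusted threshold in that fit.

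Of 28 immediate early transcription factors, 27 were tested, 11 were higher at an unadjusted p-value below 0.05 and none was lower, while 12 did not overlap on the higher side and 1 on the lower side. Of all genes tested, 5.86% were higher and 4.98% lower at that p-value, and 9.31% and 11.3% did not overlap, which is the background for this count and for those of the other lists. The median log2 fold change of the list was 0.85, against -0.05 over all genes tested. Against the July digits at 0 h the median was 0.43, with 9 members higher and 5 lower at an unadjusted p-value below 0.05. DESeq2 called 5 of them higher and the fit with 6 digits at 0 h called 4, namely Fosl1, Myc, Maff and Ier3. Myc, a driver of growth and ribosome production, had 372, 282 and 312 at 0 h and 719, 768 and 777 at 3 h (log2 fold change 1.23 ± 0.19, SE). Maff, a small Maf protein that pairs with bZIP factors, had 103, 115 and 156 at 0 h and 329, 308 and 424 at 3 h (1.5 ± 0.26). The 3 h digits were close together in both genes and stood apart from each 0 h digit. Csrnp1, a nuclear factor first described as induced by AXIN1, had 515, 267 and 207 at 0 h and 987, 1074 and 888 at 3 h (1.58 ± 0.33). Ier3, Klf10, Mafk, Junb, Egr3, Klf6 and Nr4a3 were the other members at an unadjusted p-value below 0.05, with log2 fold changes from 0.85 for Mafk to 2.06 for Nr4a3.

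The best known members of the family did not follow this order. Fos, whose product pairs with Jun in AP-1, had 8867, 2034 and 867 at 0 h and 2779, 5634 and 1765 at 3 h. The highest of the 6 digits was thus 0 h replicate 1, and the groups overlapped, with a log2 fold change of -0.21 ± 0.76 (SE; edgeR adjusted p = 0.944), positive at 1.23 without that digit. Fosb had 4889, 909 and 506 at 0 h and 2922, 5574 and 2189 at 3 h. Atf3, a stress-induced repressor, had 582, 36.3 and 48.3 at 0 h and 538, 1052 and 435 at 3 h, and Nr4a1, an orphan nuclear receptor, had 631, 95.7 and 75.2 at 0 h and 603, 1048 and 388 at 3 h. In Fosb, Atf3 and Nr4a1 both November digits at 0 h lay below every 3 h digit, and 0 h replicate 1 did not. Jun had 2898, 1833 and 1497 at 0 h and 1595, 1879 and 777 at 3 h, and Egr1, a zinc finger factor, had 2686, 1197 and 728 at 0 h and 1204, 2020.3 and 899 at 3 h, with overlap in both.

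The normalized TPM deposited by the authors puts these genes beside the intermediate digits at 0 h and the later non-regenerative digits. Fos stood at 1518 and 1555 in the July intermediate digits at 0 h and at 1399.6 in the July non-regenerative digit, against 121 in the December intermediate digit and 324 and 141 in the November non-regenerative digits. At 3 h it was 399, 775 and 237, and at 6 h 179.7, 127 and 115. Fosb was at or above 417 in the 3 July digits at 0 h, at or below 73.5 in the 3 later ones and at 231, 419.9 and 164 at 3 h. By 6 h it was 32.9, 10.3 and 14.1. For Fos and Fosb the difference between July and later digits within 0 h was larger than that between the groups, and what made the July digits differ was not tested. Fosl1 behaved otherwise: it was 53.8, 98.6 and 142 at 3 h, 165, 86.4 and 72.2 at 6 h and 24.6, 26.3 and 50.6 at 24 h, and no 0 h digit of either group exceeded 18.5. The levels at later times are given as a description and were not tested here.

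**Figure D3:**
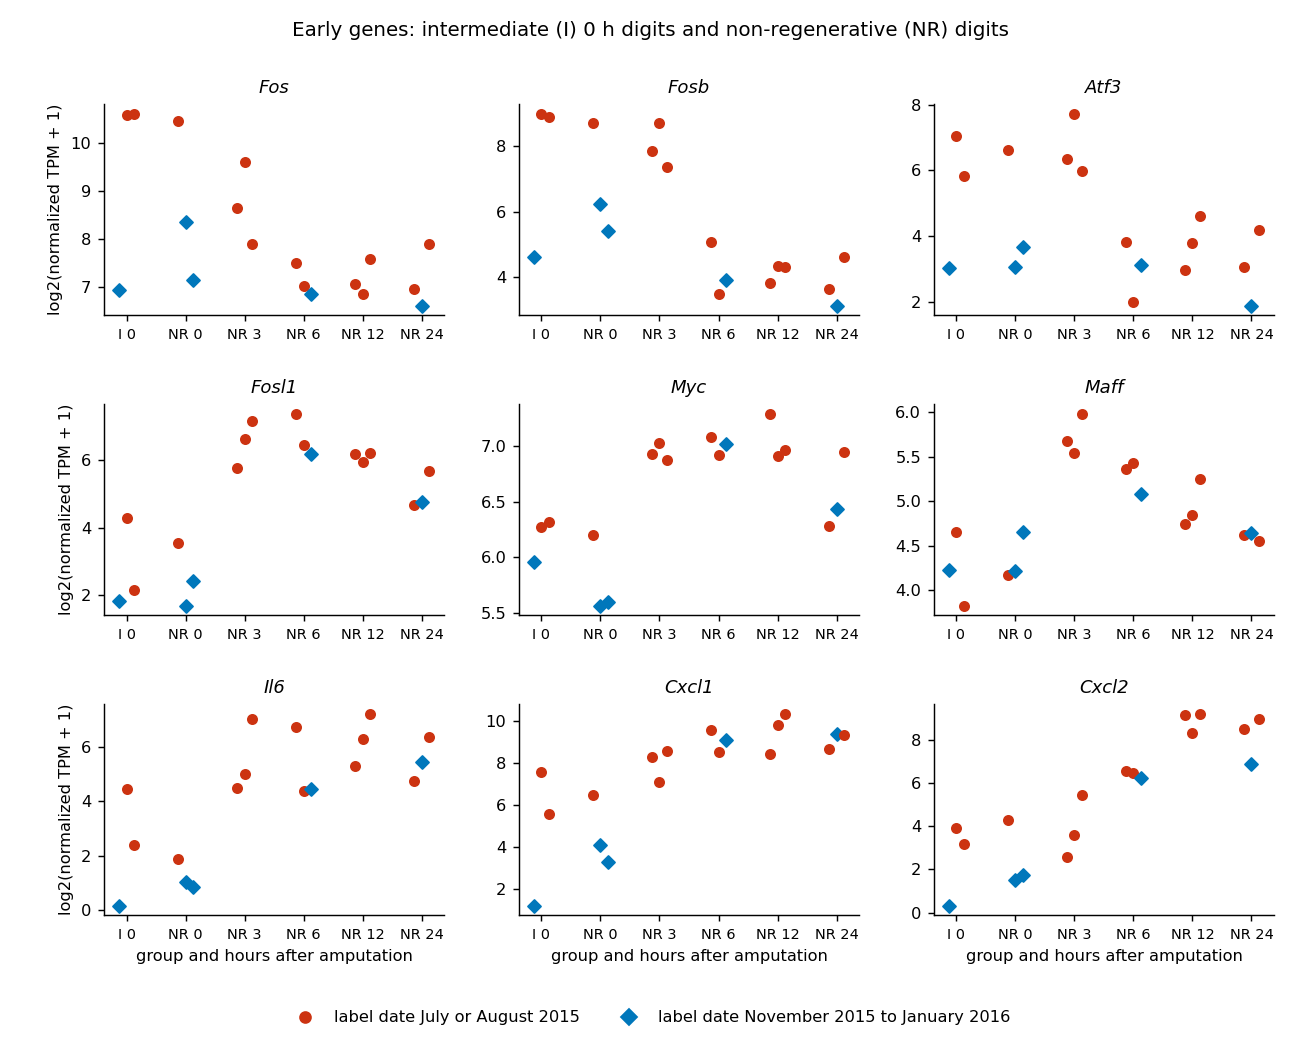
Level of 9 early genes as log2(normalized TPM + 1) on the vertical axis in the intermediate digits at 0 h (I 0) and the non-regenerative digits at 0, 3, 6, 12 and 24 h (NR), with 3 libraries per group; red circles carry label dates of July or August 2015 and blue diamonds later dates. Fos, Fosb and Atf3 are high in the July digits at 0 h and low in the later ones, whereas Fosl1 is higher at 3 h than in all 6 digits at 0 h.

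Among 16 NF-kB subunits and feedback inhibitors, 15 were tested, 6 were higher at an unadjusted p-value below 0.05 with groups that did not overlap, and none was lower. The median log2 fold change was 0.81. Tnfaip3 had 94.9, 22.7 and 23.8 at 0 h and 277, 178 and 280.4 at 3 h, with a log2 fold change of 2.41 ± 0.58 (SE; edgeR adjusted p = 0.282). Nfkbiz, an inducible nuclear IkB protein, had 489, 335 and 242 at 0 h and 819, 1246 and 1093 at 3 h (1.57 ± 0.30), and Bcl3, another nuclear IkB protein, had 25, 17.6 and 23.8 at 0 h and 80.2, 79.2 and 165 at 3 h (2.27 ± 0.50). Both were called higher with the 6 digits at 0 h. Nfkbia, which encodes the cytoplasmic inhibitor IkB-alpha, had 496, 507 and 470.0 at 0 h and 816, 1069.6 and 705 at 3 h (0.81 ± 0.21), a narrower difference that also showed no overlap. Rel and Rela, which encode subunits of NF-kB, were the other members with a p-value below 0.05, with log2 fold changes of 1.04 and 0.89. Zc3h12a, which encodes an RNase that degrades cytokine mRNAs including that of Il6, had 178, 108 and 79.6 at 0 h and 243, 207 and 370.3 at 3 h (1.16 ± 0.37), and its relative Zc3h12c had 55.3, 54.4 and 36.3 at 0 h and 133, 224 and 388 at 3 h (2.34 ± 0.44). They belong to a list of 8 mRNA decay factors of which 3 were higher at an unadjusted p-value below 0.05.

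Of 8 CXC chemokine genes that attract neutrophils and their receptors, 4 were tested, and Cxcl1 was the one that was higher at an unadjusted p-value below 0.05, with 287, 75.3 and 45.7 at 0 h and 1084, 524 and 1345 at 3 h. Its log2 fold change was 2.87 ± 0.67 (SE; edgeR adjusted p = 0.275), and 1.30 against the July digits at 0 h. Ppbp, a chemokine of platelets, was lower and is described with them. Cxcl2, another ligand of the same receptor, had 82.4, 7.36 and 7.52 at 0 h and 22.2, 41.8 and 201 at 3 h, with overlapping groups. In normalized TPM, Cxcl2 was 5.04, 10.9 and 42.9 at 3 h and 573, 323 and 599 at 12 h, and Cxcl1 was 309, 138 and 377 at 3 h and 347, 905 and 1323 at 12 h. Of 17 CC chemokine genes, 7 were tested, and Ccl2 and Ccl7, which both attract monocytes, were higher while Ccl6 was lower (-0.94). Ccl2 (chr11:82035571-82037453) had 2, 4 and 1 at 0 h and 100, 8 and 77 at 3 h as raw counts, so it was close to the floor of 3 counts at 0 h, and its normalized counts at 3 h were 106, 17.6 and 277. The fitted log2 fold change of 6.23 ± 1.10 (SE) depends on the prior count, and it was 2.96 against the July digits at 0 h. Ccl7 had 30.2, 5.66 and 7.52 at 0 h and 125, 37.4 and 464 at 3 h (3.89 ± 1.0). The order of the 3 h digits was the same in Ccl2, Ccl7 and Selp, with replicate 3 highest and replicate 2 lowest.

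Markers of neutrophils were low in all 6 libraries. Of 17 neutrophil markers, 4 had enough counts to be tested, 3 were at 0 in all 6 libraries, and S100a8, a major cytosolic protein of these cells, reached at most 2 counts at 0 h and 8 at 3 h. Mpo and Elane, the granule enzymes, were at 0. The summed level of the list was 16.4 to 33.4 CPM at 0 h and 21.1 to 89.8 at 3 h. In normalized TPM, S100a9 was 3.19, 9.05 and 25.2 at 3 h, 142, 97.6 and 163 at 6 h and 757, 719 and 795 at 24 h. Of 15 markers of monocytes and macrophages, 13 were tested and 0 passed an unadjusted p-value of 0.05 in either direction in edgeR; DESeq2 and voom called 0 as well. Lyz2, which encodes lysozyme, had 658, 373 and 342 at 0 h and 448, 145 and 712 at 3 h. In these whole tissue samples, fewer cells of a type and less RNA per cell cannot be told apart.

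Of 18 genes of IL-6 family signalling, 15 were tested, 6 were higher and 1 was lower at an unadjusted p-value below 0.05. Besides Il6, Socs3, the feedback inhibitor that STAT3 induces, had 312, 108 and 60.8 at 0 h and 558, 566 and 1787 at 3 h (2.60 ± 0.68). Its groups did not overlap, and 0 h replicate 1 lay nearest to the 3 h digits. Cish and Stat3 were higher by 1.109 and 0.77 on the log2 scale. The receptor genes Il6ra and Il6st had log2 fold changes of -0.09 and -0.19. Of 16 IL-1 family genes, 15 were tested and 3 were higher at an unadjusted p-value below 0.05: Il18, the decoy receptor gene Il1r2 and Il1b. Il1b had 59.4, 5.66 and 15.7 at 0 h and 26.4, 90.2 and 327 at 3 h, with overlap (log2 fold change 2.46, and 1.123 without 3 h replicate 3). Ptgs2, which encodes the inducible cyclooxygenase COX-2, had 166, 36.3 and 17.5 at 0 h and 244, 335 and 1294 at 3 h (3.11 ± 0.91). It was called higher by voom and not by DESeq2.

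The activated vessel wall displays selectins and integrin ligands that slow and hold leukocytes. Of 16 listed, 15 were tested, 4 were higher at an unadjusted p-value below 0.05 and none was lower. Selp (chr1:164115264-164150026) had 77.2, 19.3 and 25.1 at 0 h and 305, 198 and 953 at 3 h, a log2 fold change of 3.60 ± 0.73 (SE; edgeR adjusted p = 0.235). Sele, which encodes the endothelial E-selectin, had 337, 69.7 and 85.9 at 0 h and 794, 557 and 791 at 3 h (2.14 ± 0.56), and Icam1, a ligand of leukocyte integrins, had 204, 49.3 and 58.3 at 0 h and 324, 297 and 633 at 3 h (2.014 ± 0.57). F3, which encodes tissue factor, had 1343, 1369 and 1042 at 0 h and 1784, 2265 and 2157 at 3 h (0.72 ± 0.21). In all 4 genes the groups did not overlap. Against the July digits at 0 h the log2 fold changes were 2.68 for Selp, 0.97 for Sele, 1.013 for Icam1 and 0.57 for F3. The median of the list was 0.53 in the main fit and 0.19 against the July digits. Vcam1, which endothelium also displays under NF-kB, had 34.4, 18.1 and 14.4 at 0 h and 2.111, 2.20 and 50.3 at 3 h, with overlapping groups. The summed level of 10 endothelial markers was 184.5 to 434.6 CPM at 0 h and 110.3 to 332.9 at 3 h. Of the 9 tested, none was higher and 1 was lower at an unadjusted p-value below 0.05. Their median log2 fold change was -0.54. Against the July digits at 0 h, 4 were lower at that p-value, none was higher and the median was -0.92.

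Ligands of the EGF receptor, which keratinocytes release at a wound edge, were compared with the receptor itself. All 10 listed genes were tested, 4 were higher at an unadjusted p-value below 0.05 and 5 had groups that did not overlap, all on the higher side. Hbegf had 331, 87.8 and 81.5 at 0 h and 461, 1001 and 1086 at 3 h (2.36 ± 0.58), and Epgn, which encodes epigen, had 128, 108 and 96.5 at 0 h and 189, 418 and 564 at 3 h (1.80 ± 0.39). Ereg, which encodes epiregulin, had 818, 1334 and 1049 at 0 h and 3367, 3451 and 1381 at 3 h (1.36 ± 0.36), with replicate 3 close to the 0 h digits. Areg, which encodes amphiregulin, had 17.7, 24.9 and 25.1 at 0 h and 28.5, 50.6 and 226 at 3 h, with replicate 3 far above the other digits (log2 fold change 2.117, and 0.78 without it). Egfr had 666, 432 and 397 at 0 h and 603, 676 and 464 at 3 h, with overlap (log2 fold change 0.23). Errfi1, which encodes a feedback inhibitor of the receptor, had 784, 314 and 317 at 0 h and 1105, 988 and 1593 at 3 h (1.38 ± 0.39). Of 16 MAP kinase feedback inhibitors, 15 were tested and 3 were higher at an unadjusted p-value below 0.05, among them Dusp5 (0.80 ± 0.33), which encodes a nuclear ERK phosphatase.

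Genes of keratinocyte migration and of the matrix were higher in part. Of 20 migration genes, 18 were tested and 7 were higher at an unadjusted p-value below 0.05. Serpinb2, which encodes a plasminogen activator inhibitor of keratinocytes, had 802, 751 and 579.7 at 0 h and 1248, 2262 and 3249.9 at 3 h (1.66 ± 0.34). Plaur, which encodes the urokinase receptor, had 31.3, 18.7 and 31.3 at 0 h and 78.1, 35.2 and 284 at 3 h (2.26 ± 0.74, and a log2 fold change of 1.10 without 3 h replicate 3), and Mmp3, which encodes stromelysin-1, had 33.4, 15.3 and 47.0 at 0 h and 33.8, 128 and 460.2 at 3 h (log2 fold change 2.66, and 1.31 without that digit). In normalized TPM, Mmp3 was 5.53, 20.3 and 72.5 at 3 h and 681, 246 and 161 at 6 h, and Plaur 17, 6.72 and 53.7 and 255, 131 and 72.7. Of 19 matrix genes, 18 were tested and 4 were higher at an unadjusted p-value below 0.05. Adamts4, which encodes a protease that cleaves aggrecan and versican, had 46.9, 10.8 and 14.4 at 0 h and 247, 112 and 489 at 3 h (3.59 ± 0.72), and Adamts1, of the same family, had 536, 141 and 141 at 0 h and 1022, 1455 and 2254 at 3 h (2.54 ± 0.57). Tnfaip6, which encodes a hyaluronan-binding protein, had 19.8, 7.36 and 3.13 at 0 h and 81.3, 13.2 and 284 at 3 h (3.66 ± 1.09), with overlap between the groups. Of 7 basal and wound-induced keratin genes, 1 passed an unadjusted p-value of 0.05, Krt16, with 2005, 3306 and 2769 at 0 h and 2706, 8257 and 5238 at 3 h and overlapping groups, while the basal keratin gene Krt14 had a log2 fold change of 0.02.

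**Figure D4:**
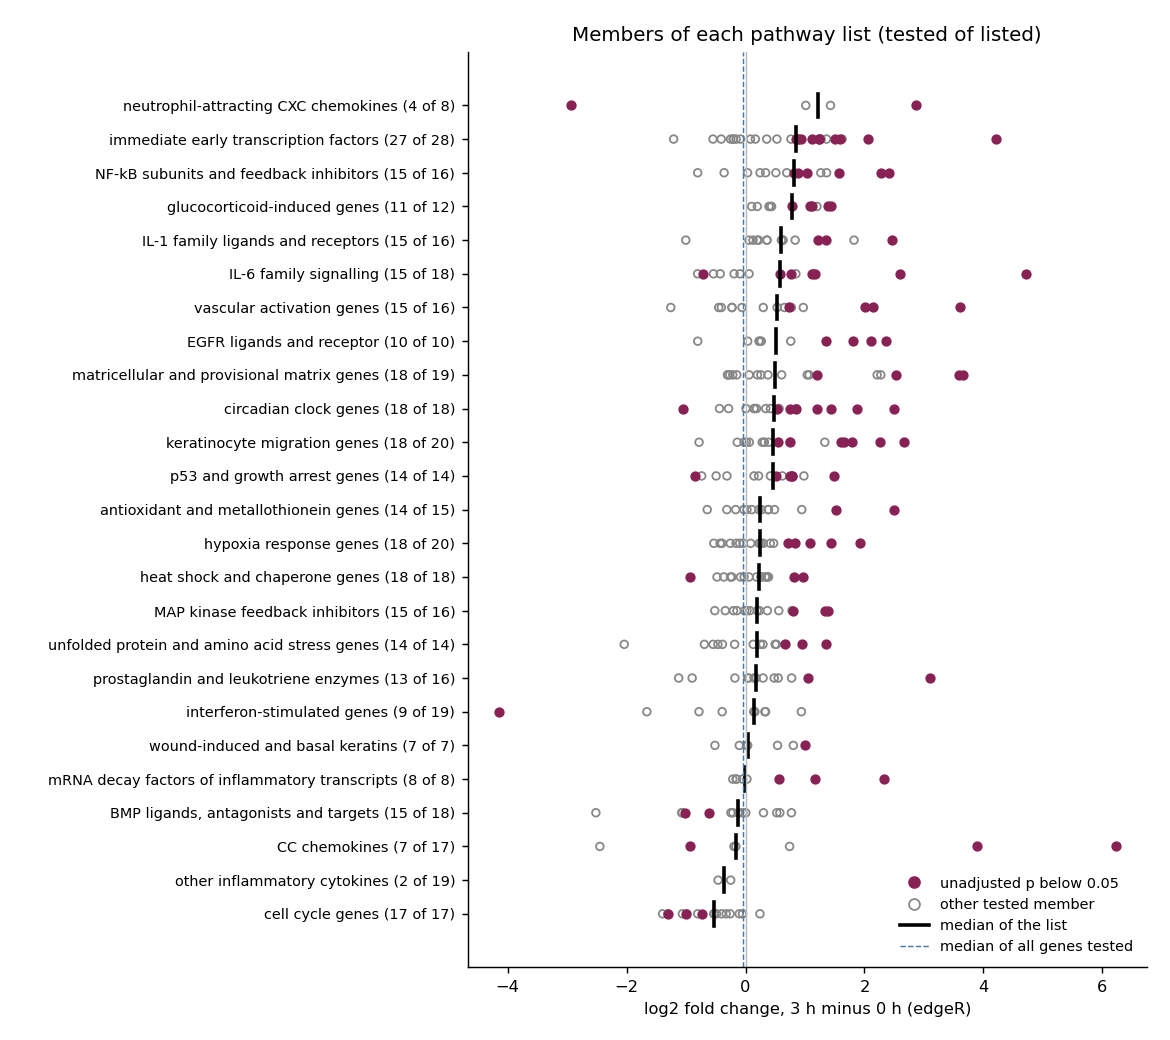
Log2 fold change of each tested member (horizontal axis, edgeR) in the 25 pathway lists (vertical axis, ordered by median, with the number tested of the number listed). Filled points have an unadjusted p-value below 0.05, black bars are list medians and the dashed line is the median of all genes, -0.05; the median is 0.85 for the immediate early factors and -0.53 for the cell cycle genes.

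Several hypoxia and clock genes had 3 h digits that lay close together. Of 20 hypoxia response genes, 18 were tested, 5 were higher at an unadjusted p-value below 0.05 and none was lower. Hk2, which encodes hexokinase 2, had 512, 468 and 520.2 at 0 h and 1433, 1569 and 1049.8 at 3 h, a log2 fold change of 1.43 ± 0.21 (SE; edgeR adjusted p = 0.176). Adm, which encodes the vasodilator adrenomedullin, had 66.7, 36.3 and 68.9 at 0 h and 164, 255 and 234 at 3 h (1.92 ± 0.37), and Ndrg1 had 457, 529 and 441 at 0 h and 792, 1043 and 1194 at 3 h (1.083 ± 0.22). All 3 were called higher with the 6 digits at 0 h. Vegfa, the angiogenic growth factor gene of the same list, had 739, 438 and 609.8 at 0 h and 546, 357 and 324 at 3 h. Of 18 circadian clock genes, 7 were higher and 1 was lower at an unadjusted p-value below 0.05. Per2, a repressor of the clock, had 68.8, 73.1 and 132 at 0 h and 319.8, 354 and 334 at 3 h (1.88 ± 0.31), and Nfil3, a bZIP repressor, had 72.0, 21 and 33.2 at 0 h and 209, 257 and 237 at 3 h (2.50 ± 0.47). In normalized TPM, Per2 was 15.9, 17.2 and 16.1 at 3 h and 7.18, 5.04 and 8.17 at 6 h. The labels give no time of day, and its part in these values was not tested.

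Of 12 glucocorticoid-induced genes, 11 were tested, 5 were higher at an unadjusted p-value below 0.05 and none was lower. Klf9, a direct target of the glucocorticoid receptor, had 231, 175 and 191 at 0 h and 457, 335 and 471 at 3 h (1.080 ± 0.23), whereas Fkbp5, another such target, had 126, 167 and 191 at 0 h and 111, 81.4 and 377 at 3 h. Of 14 p53 and growth arrest genes, 5 were higher and 1 was lower at an unadjusted p-value below 0.05. Cdkn1a, which encodes the cell cycle inhibitor p21, had 699.7, 1013 and 813 at 0 h and 1287, 1703 and 1363 at 3 h (0.78 ± 0.22), and Mdm2, which encodes the ubiquitin ligase of p53, had 602, 633 and 557 at 0 h and 836, 1010.1 and 1244 at 3 h (0.78 ± 0.21). Of 18 heat shock and chaperone genes, 2 were higher at an unadjusted p-value below 0.05 (5.86% of all genes), Dnajb4 (0.96 ± 0.20) and Dnajb1 (0.81 ± 0.19), and 1 was lower (4.98% of all genes), the mitochondrial chaperonin gene Hspe1 (-0.94 ± 0.30). Of 14 genes of the unfolded protein and amino acid stress response, 3 were higher, among them Dnajb9 (1.36 ± 0.26) and Atf4 (0.95 ± 0.27). Mt2, which encodes a metallothionein, had 1208, 655 and 448 at 0 h and 1254, 2093 and 3257 at 3 h (1.51 ± 0.44).

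Of the 50 genes called higher by DESeq2, by voom and with the 6 digits at 0 h alike, several lie outside the lists and were chosen here after their values were seen. Tiparp, a target of the aryl hydrocarbon receptor, had 194, 138 and 105 at 0 h and 469.7, 583 and 726 at 3 h (2.02 ± 0.29). Itpkc, an inositol trisphosphate kinase gene, had 259.7, 308 and 237 at 0 h and 677, 896 and 996 at 3 h (1.67 ± 0.22), and Nod2, which encodes a sensor of bacterial cell wall fragments, had 44.8, 46.4 and 42.6 at 0 h and 141, 255 and 324 at 3 h (2.41 ± 0.37). The groups did not overlap in any of these genes. Of the genes with the smallest DESeq2 p-values, Ralgds, which encodes an exchange factor downstream of Ras, had 372, 315 and 326 at 0 h and 840.2, 1074 and 899 at 3 h (1.47 ± 0.20), and Bach1, a repressor of haem oxygenase, had 442, 519 and 496 at 0 h and 1179, 1237 and 1593 at 3 h (1.46 ± 0.20). Odc1, which encodes the first enzyme of polyamine synthesis, Cldn4, a tight junction gene, and Il4ra, an interleukin receptor gene, had log2 fold changes of 1.17 ± 0.24, 1.47 ± 0.27 and 1.2 ± 0.24.

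Cell cycle genes pointed the other way. All 17 were tested, 3 were lower and none was higher at an unadjusted p-value below 0.05, 9 had groups that did not overlap on the lower side (4.98% and 11.3% of all genes), and the median log2 fold change was -0.53. Top2a, which encodes a topoisomerase of dividing cells, had 834, 1540.2 and 1319 at 0 h and 508, 783 and 561 at 3 h (-1.0 ± 0.28), Mki67 had 1353, 1767 and 1545 at 0 h and 872, 1307 and 626 at 3 h (-0.73 ± 0.28) and Mcm6, a subunit of the replicative helicase, had 258, 266 and 209 at 0 h and 121, 143 and 25.2 at 3 h (-1.30 ± 0.50). Ccna2, which encodes cyclin A2, had 201, 223 and 182 at 0 h and 81.3, 143 and 14.4 at 3 h, where replicate 3 was far below the others. Pcna, the sliding clamp gene, had 415, 437 and 439.9 at 0 h and 386, 506 and 644 at 3 h, with overlapping groups. Of the listed cell cycle genes, 0 were called by DESeq2, by voom or with the 6 digits at 0 h. Outside the list, and chosen after their values were seen, Clspn, which encodes a replication checkpoint protein, had 185, 239.6 and 207 at 0 h and 67.6, 59.4 and 64.7 at 3 h (-1.72 ± 0.29). Uhrf1, which encodes a factor that maintains DNA methylation after replication, Lmnb1, which encodes lamin B1, and Tubb5, a tubulin gene, had log2 fold changes of -1.17 ± 0.29, -1.14 ± 0.24 and -1.01 ± 0.20. These 4 genes were among the 16 called lower by DESeq2, by voom and with the 6 digits at 0 h.

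Genes of red blood cells made up 3 of the 12 most decreased abundant genes. Of 12 listed red blood cell and platelet markers, 9 were tested, 5 were lower at an unadjusted p-value below 0.05 with groups that did not overlap, and the same 5 were called lower by DESeq2. Hbb-bt (ENSMUSG00000073940, chr7:103812524-103813996) had 292, 467 and 449 at 0 h and 21.1, 6.60 and 0 at 3 h (-5.07 ± 0.62), and its neighbour Hbb-bs had 2319, 2625 and 2773 at 0 h and 615, 224 and 690.3 at 3 h (-2.34 ± 0.39). Hba-a2 had 4705, 3222 and 2603 at 0 h and 984, 317 and 690.3 at 3 h (-2.40 ± 0.42), and Hba-a1 had 87, 351 and 259 at 0 h and 10, 0 and 0 at 3 h as raw counts. Alas2, which encodes the first enzyme of haem synthesis in these cells, had 159, 165 and 160.4 at 0 h and 58.1, 6.60 and 25.2 at 3 h (-2.33 ± 0.61). The 2 beta globin and 2 alpha globin genes are near-identical pairs, so the split of reads within each pair is uncertain. Against the July digits at 0 h the 5 log2 fold changes ran from -4.60 to -2.33. Hbb-bs in normalized TPM was 1291, 1275 and 1372 at 0 h, 1339, 780.3 and 2232 in the intermediate digits at 0 h, 305, 106 and 355 at 3 h and 36.5, 31.8 and 161 at 24 h. Of the platelet genes, Ppbp had 1300.4, 211 and 114 at 0 h and 116, 22 and 64.7 at 3 h (log2 fold change -2.94, and -1.23 without 0 h replicate 1), and Itga2b had 891, 184 and 119 at 0 h and 119, 123.2 and 194 at 3 h, with 0 h replicate 1 far above the other 5 digits. Itgb3, which encodes an integrin chain of platelets and osteoclasts, had 633, 291 and 251 at 0 h and 112, 48.4 and 137 at 3 h (-1.99 ± 0.47).

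The other genes most decreased by the same rule, besides Itgb3, were Nrgn, Hmgn5, Upf3b, Fgfbp3, Bin1, Taf3, Pelp1 and Nr2f2. Hmgn5, which encodes a nucleosome-binding protein, had 782, 4434 and 6547 at 0 h and 666, 695 and 661 at 3 h (-2.54 ± 0.63), so that the July digit at 0 h stood beside the 3 h digits, and the log2 fold change was -0.34 against the July digits at 0 h. Taf3, a subunit of the general factor TFIID, had 70.9, 334 and 426 at 0 h and 70.7, 70.4 and 68.3 at 3 h and -0.16 against the July digits. Upf3b and Pelp1 shared this order, with -0.81 and -0.68. Nrgn had 718, 149.5 and 78.3 at 0 h and 60.2, 17.6 and 46.7 at 3 h, with 0 h replicate 1 the highest (log2 fold change -2.89, and -1.44 without it). Nr2f2, which encodes a nuclear receptor of veins and mesenchyme, had 175, 199 and 231 at 0 h and 96.0, 24.2 and 28.8 at 3 h, without overlap and with 1 digit at 3 h nearer to the 0 h digits. It kept a log2 fold change of -1.54 against the July digits.

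Several marker lists stood out in a single digit. Nail and hair keratin markers summed to 6528 CPM in 0 h replicate 1, to 298 and 1201 in the other 0 h digits, and to 137.4 to 1045 at 3 h. Krt86 had 8792, 230.0 and 569 at 0 h and 278, 638 and 53.9 at 3 h, and its log2 fold change of -3.29 ± 1.33 (SE) came to -0.29 without 0 h replicate 1. Fibroblast markers summed to 3066 to 6101 CPM at 0 h and to 3815, 1437 and 8735 at 3 h, and bone-forming cell markers to 54.0 to 147.0 at 0 h and to 11.4, 16.4 and 175.8 at 3 h. Replicate 3 at 3 h was thus the highest of the 6 digits in both lists, as it was in Il6, Ccl2, Ccl7 and Selp, and the part of tissue composition in these values was not tested. Without 3 h replicate 3, the log2 fold changes were 3.86 for Il6, 2.58 for Ccl7, 2.69 for Selp, 2.02 for Ptgs2, 2.32 for Tnfaip6 and 0.43 for Stat3. The list medians without it were 0.07 for IL-6 family signalling (0.59 with it), 0.04 for vascular activation (0.53), 0.22 for keratinocyte migration (0.47) and -0.27 for the matrix genes (0.49).

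**Figure D5:**
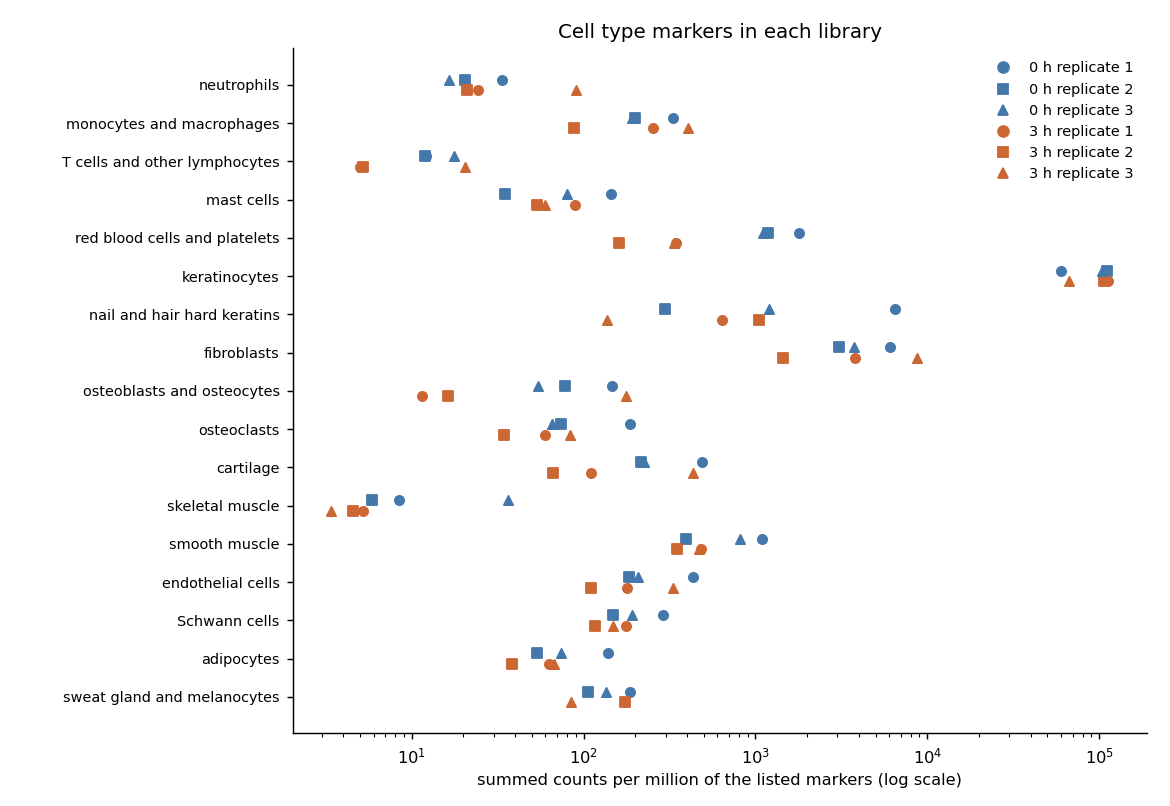
Summed CPM (horizontal axis, log scale) of the markers of 17 cell types (vertical axis) in each library, blue for 0 h and orange for 3 h, with the shape giving the replicate. Red blood cell and platelet markers are lower in all 3 h libraries (159.8 to 345.9) than in all 0 h libraries (1106 to 1796), and the nail and hair keratins are highest in 0 h replicate 1.

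Interferon-stimulated genes and BMP genes were also counted against the 4.98% of all genes that were lower. Of 19 interferon-stimulated genes, 9 were tested, 1 was lower and none was higher at an unadjusted p-value below 0.05. Rsad2, which encodes the antiviral protein viperin, had 80, 82 and 95 at 0 h and 7, 0 and 0 at 3 h as raw counts, and it was called lower by DESeq2 and with the 6 digits at 0 h. Of 18 BMP ligands, antagonists and targets, 15 were tested and 2 were lower at an unadjusted p-value below 0.05. The log2 fold changes of the 15 ran from -2.52 to 0.77, with a median of -0.12 and 5 above 0. Bmp2, a ligand whose delivery can promote bone regeneration according to studies the paper cites, had 76.1, 77.6 and 78.3 at 0 h. At 3 h it had 104, 185 and 53.9, with 1 digit below and 2 above all 0 h digits (log2 fold change 0.58, edgeR adjusted p = 0.661).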

How the data were processed

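Poly(A) RNA of digit tissue was sequenced as single-end reads, and the authors aligned them with Bowtie to the Ensembl transcripts of mm10 (GRCm38) and deposited, for each gene and digit, RSEM 1.2.3 expected counts, which need not be whole. The authors also deposited a signal table of normalized TPM, made by scaling the RSEM TPM of each digit between libraries by median ratios. It is used here for levels over time, without a test. The macrophage files of the series were not used, and 0 columns of digits were left without a sample. Groups follow the labels, and the members and gene lists were chosen with earlier results of these data known.

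Expected counts were rounded to whole numbers, and 26 gene names that a spreadsheet had turned into dates were restored. Of 21954 genes, 12562 passed edgeR's filter on low counts. The 6 libraries were fitted with TMM scaling and edgeR's quasi-likelihood test (edgeR 4.0.16, limma 3.58.1, R 4.3.3), with Benjamini-Hochberg adjustment over all genes tested. A gene was called at an adjusted p-value below 0.05 and a change of more than 2-fold in the mean normalized count plus 1. The SE of a log2 fold change was derived as its absolute value divided by the square root of the F statistic. The study's own test, EBSeq, was not run. The code of the fits was run on simulated counts with known changes. That simulation had the same spread for every gene and no outlying library or date effect, so it does not vouch for the calls made here.

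Alternatives were other scalings, no filter, DESeq2 1.42.0, voom with quality weights, wider fits, a date term, other 0 h references and leaving out each library. The fit without both 0 h replicate 1 and 3 h replicate 3 was chosen after seeing the data. Named genes are the 12 largest changes in each direction among genes with a mean normalized count of at least 100, an unadjusted p-value below 0.05, groups that do not overlap and a full gene name, up to 4 members of each list with the smallest p-values and its 2 most abundant, every immediate early factor, any gene of a fit that called 5 or fewer, and the 5 smallest DESeq2 p-values. Genes of the lists outside this rule (Alas2, Bmp2, Egfr, Elane, Fkbp5, Il6ra, Itga2b, Mpo, Pcna, Rel, Rela, S100a8, Vcam1 and Vegfa) were named after their values were seen. Counting did not use strand as far as the sources used here say, and 36 of 101 named genes overlap a gene on the other strand, Fosl1 and Adamts4 among them, so reads of such pairs may not be separable. Gene positions are from GENCODE vM21 and promoters from RefSeq. Totals of 1468719 to 10608182 counts set the precision of each value, which covers counting error only where a floor of 3 counts is given.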

Additional observations from a re-analysis of the deposited data

How the results depend on the processing

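The count of 0 genes called by edgeR in either direction did not rest on the fold threshold, as the smallest adjusted p-value was 0.164. It stayed at 0 with the other 2 scalings and with all 29 non-regenerative digits in 1 fit. It also stayed at 0 with a date term and against the July digits at 0 h. It was 13 higher and 3 lower without a filter on low counts, 103 and 93 in DESeq2, 121 and 67 in voom, 64 and 44 with the intermediate digits at 0 h added, and 1 and 1 (Adamts4 and Col24a1) with all 41 digits and the date period. Leaving out 1 library at a time gave 0 to 28 genes called higher and 0 to 56 called lower, the upper values being those without 0 h replicate 1. Without that library and 3 h replicate 3, a choice made after seeing the data, it was 149 and 218. The fits without 0 h replicate 1 hold no July digit at 0 h, so they cannot separate time from date.

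At an unadjusted p-value below 0.05, against 736 higher and 626 lower, voom gave 1358 and 1271, the fit of 29 digits gave 233 and 549, that of 41 digits gave 338 and 758 (29.8% and 30.8% of them higher, against 54.0%), the date term gave 489 and 342, and the 6 digits at 0 h gave 1196 and 1348. Leaving out 1 library gave 277 to 1018 higher and 265 to 1016 lower, with 391 and 356 without 0 h replicate 2, 277 and 265 without 0 h replicate 3, 1016 lower without 3 h replicate 1 and 942 lower without 3 h replicate 3. Without 0 h replicate 1 and 3 h replicate 3 it was 1567 and 1496. The cause of these shifts was not tested.

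Of 1717 values of the 101 named genes under alternatives, 5 changed sign, in 2 genes. Fos was 1.09 in voom and 1.53 without 0 h replicate 1 and 3 h replicate 3, with -0.78 to 1.23 when 1 library was left out. Krt86 was 0.17 without those 2 libraries, with -4.21 to -0.29 when 1 was left out. Most of the 101 genes were chosen for small p-values or for groups that do not overlap in the main fit. The low count of sign changes follows largely from that choice and does not measure robustness. Fosb, Atf3, Nr4a1, Jun and Egr1, whose groups overlapped, are described above but are not among the 101. Of 697 medians of gene lists, 72 had the other sign. Fosl1 ranged from 3.22 to 4.92, Il6 from 2.18 to 5.34, Hbb-bt from -6.61 to -4.59 and Hmgn5 from -3.03 to -0.11. Without 3 h replicate 2, Dusp5 was 0.53 and the median of the cell cycle list -0.81, and without 3 h replicate 1 Nr2f2 was -2.93.

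No paired analysis was possible because the labels of the digits give no replicate number, and the numbers used here follow the order of the samples. Depth limits low genes most in 3 h replicate 3, and 1 date for all 3 h digits limits what the comparison can separate.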

Other observations

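Lists not described above moved little. Of 16 prostaglandin and leukotriene enzymes, 13 were tested and 2 were higher at an unadjusted p-value below 0.05, Ptgs2 and the epidermal lipoxygenase gene Alox12b. Of 15 antioxidant and metallothionein genes, 14 were tested and 2 were higher, Mt2 and Osgin1, the second with 18.8, 3.4 and 3.76 at 0 h and 30.6, 48.4 and 64.7 at 3 h. Of 19 other inflammatory cytokines, 2 had enough counts to be tested, and 7 were at 0 in all 6 libraries. Of 6 cartilage markers tested, Sox9 was lower (-0.76), and of 7 smooth muscle markers Myh11 was lower (-1.0), both at an unadjusted p-value below 0.05. Of the markers of adipocytes, mast cells, sweat glands with melanocytes, and T cells with other lymphocytes, 4, 3, 3 and 1 were tested and 0 passed that value in edgeR, and DESeq2 and voom called 0. Dsg3, a desmosome gene of keratinocytes, had 828, 595 and 448 at 0 h and 1105, 1274 and 2337 at 3 h (1.33 ± 0.34).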
